A study of Vitis vinifera with 24 samples.

Results

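The plateau probes are 200 of the 117999 grapevine probes on the array, chosen because their intensity rose during veraison and then stayed level to harvest. They were picked by a rule on log2 intensities. The BV mean was taken over the 6 arrays of C and PB berries at the beginning of veraison (BV). The EV mean was taken over the 6 arrays of PB and V berries at the end of veraison (EV), and the harvest (H) value was the median of all 9 harvest arrays. The rise d1 is the EV mean minus the BV mean, and the later change d2 is the harvest value minus the EV mean. Of the 62360 probes with an absolute d2 below 0.5, the 200 with the largest d1 were kept. Because the rule used these values, the rise and the level phase are described below without a test.

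Berries came from field-grown Sangiovese vines (Vitis vinifera) of one clone on one rootstock. C vines were left untreated. PB vines lost the main and lateral leaves of the 6 basal nodes of each shoot before bloom, at JD 147, and V vines lost the same leaves at veraison, at JD 211 (JD is the day of the year). Each array held total RNA from the seedless tissue of a pool of berries from 3 vines, with 3 arrays for each of 8 groups, namely C and PB at BV and C, PB and V at EV and H. V berries were not measured at BV. The 6 C arrays at EV and H carry labels of a cluster-thinning experiment in the same vineyard, while the other 18 carry those of the defoliation experiment, so label set and control cannot be told apart at these stages. On the C arrays at EV, which the rule left out, the mean log2 intensity of random-sequence probes (the random-probe level, a measure of background) was 6.31 to 7.15, against 5.77 to 6.56 on the other 21 arrays. Replicates 1 and 3 of these exceeded all others.

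Veraison is the transition from the hard green berry to ripening. Berries soften, load sugar and, in red cultivars, begin to store anthocyanin in the skin, while acids fall and many genes of the green phase are switched off. Transcripts that climb at veraison and then hold their level change with this switch rather than along a steady trend. Whether the plateau probes can place a berry sample on the ripening course was not tested. The deposited table gives probe identifiers and no genes, and no table used here pairs these with genes, so these values are per probe. No pathway is named, the tissue was not checked against marker genes, and no probe sequence is printed.

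Among the plateau probes d1 ran from 1.43 to 4.13 on the log2 scale, with a median of 1.73, or folds of 2.69 to 17.5 with a median of 3.31. A d1 of at least 2 was reached by 47 probes and a d1 of at least 3 by 7. The first probe outside had a d1 of 1.42 against 1.43 for the last inside, and the d2 nearest the limit was -0.50 inside and 0.50 outside. As many as 846 probes (0.717% of all) rose at least as much as the last plateau probe, of which 357 rose by 0.5 or more again by harvest and 289 fell back by 0.5 or more. Levelling off was thus less common among strong risers than going on in either direction.

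The probes were mostly of middle to high brightness on the plateau. Their BV means had quartiles of 7.27 and 10.30 and a median of 8.47 (log2 intensity), and their EV means a median of 10.24, with the brightest at 14.86. At BV, 59 of the 200 lay below 7.38, the 95th percentile of the random-sequence probes averaged over those arrays, whereas at EV 7 lay below the corresponding 7.53. On single BV arrays 31.6% to 43.9% of all grapevine probes lay below the percentile of that array. On the PB and V arrays at EV it was 36.9% to 41.3%. A start near background was thus not particular to the plateau probes. For probes that started near background, the rise on the log2 scale can understate the true one.

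Over the 15 EV and H arrays other than C at EV, the median of the plateau probes lay between 9.90 and 10.72. The 6 BV arrays, from 7.50 to 9.10, were far from uniform. The median over the plateau probes was 7.57, 8.86 and 8.36 in C replicates 1, 2 and 3, and 9.07, 7.50 and 9.10 in PB replicates 1, 2 and 3. C replicate 1 and PB replicate 2 were the low ones, 1 from each treatment, and the level did not follow the defoliation. For 114 of the 200 probes (57%) these arrays were the lowest pair of the 6, as they were for 12.0% of all probes. The low pair lay below the other 4 arrays by a median of 1.08 over the plateau probes, against 0.02 over all probes. The rule favours probes with low values at BV, so these counts are a description. The random-probe level of the low pair, 6.03 and 5.95, was at most 0.26 above that of the other 4 BV arrays.

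As a result the range over the 6 BV arrays, with a median of 1.98, exceeded d1 itself in 121 of the 200 probes. Over all probes the median range was 0.99. Replicates of one group differed by a root mean square SD of 1.06 for C and 1.12 for PB at BV over the plateau probes, against 0.52 and 0.45 over all probes. At EV this spread was 0.79 for PB and 0.77 for V over the plateau probes. Without the low pair the median d1 fell to 1.40, the smallest was 0.52 and 179 of the 200 probes still had a d1 of at least 1. On all 6 BV arrays 132 of the probes (66%, against 2.80% of all probes) were lower than on any PB or V array at EV.

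The largest rise was that of VitusP00187478. At BV its log2 intensity was 5.11, 11.11 and 8.80 in C and 10.58, 5.76 and 11.97 in PB (replicates 1, 2 and 3). At EV it was 13.41, 13.02 and 12.64 in PB and 12.97, 12.93 and 13.11 in V. The BV values therefore covered nearly the whole span from background to plateau while the EV values lay within 1 unit. C berries at EV, with 14.40, 12.35 and 13.66, were on the same plateau. At harvest C berries had a mean of 13.37 ± 0.03, PB berries 13.54 ± 0.24 and V berries 13.10 ± 0.36 (SD, n = 3 arrays). The d1 of 4.13 was a 17.5-fold rise.

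VitusP00187480, with an identifier only 2 numbers away, had nearly the same course. Its BV values were 5.87, 12.32 and 9.62 in C and 11.55, 6.66 and 13.07 in PB, with the same arrays low and high. It reached 13.88 ± 0.46 in PB, 14.02 ± 0.08 in V and 13.92 ± 0.27 in C at EV. At harvest it stood at 14.16 ± 0.11 in C, 13.99 ± 0.18 in PB and 13.94 ± 0.23 in V. Its range of 7.20 over the BV arrays was the largest among the plateau probes. The array also holds a pair of further probes within 5 numbers of these, with a d1 of 3.90 and 4.02, that the limit on d2 kept out (d2 of 0.66 and -0.94).

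Such neighbours were common. Identifiers of grapevine probes follow each other at a median step of 2, and 110 of the 200 plateau probes had another plateau probe within 10 numbers, in 46 runs of 2 to 6. The spans of these runs held 146 probes of the array, of which 110 were plateau probes. Over the 24 arrays the correlation of pairs within a run had a median of 0.86 (90 pairs), against 0.51 for all other pairs of plateau probes. Pairs share the arrays and the rise that chose them, so these are descriptions. Several probes of one run may report one transcript, although the files do not say so, and the 200 probes formed 136 runs and single probes. Of the 200 strongest risers that went on rising, 157 had such a neighbour in their own list, and of the 200 that fell back, 151.

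The longest run had 6 plateau probes among the 11 probes of its span, with a d1 from 2.26 to 3.05. These were among the brightest on the plateau, with EV means between 12.10 and 14.86. Averaged over the 6, the log2 intensity was 11.39 in C and 11.88 in PB at BV, 14.13 in PB and 14.13 in V at EV, and 13.75, 13.97 and 14.65 in C, PB and V at harvest. In C at EV the average was 12.66, between the BV and the plateau level.

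The C arrays at EV took no part in the choice. They hold untreated berries at the stage for which the rule used defoliated berries only. They also carry the cluster-thinning labels and had higher random-probe levels than the PB and V arrays at EV. What follows can therefore not be assigned to the lack of defoliation. The median over the plateau probes was 9.62, 9.74 and 9.80 on C replicates 1, 2 and 3 at EV. On the 6 PB and V arrays it was 10.07 to 10.72, so the medians did not overlap. The median over all grapevine probes was also lower on these C arrays, at 8.10, 8.41 and 8.26, against 8.47 to 8.48 on the PB and V arrays. Each probe was placed between its BV mean (0%) and its EV mean of PB and V (100%). The C berries had a median position of 62.6%, with medians of 50.9%, 71.8% and 56.9% on replicates 1, 2 and 3. One side of this comparison chose the probes and no test was made.

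The median hides a wide spread. C berries at EV stood below 25% of the rise for 71 probes, between 25% and 75% for 45, and at 75% or above for 84. For 56 probes they were below the BV mean and for 62 above the EV mean of the defoliated berries. The 3 C arrays all lay below the 6 PB and V arrays for 67 plateau probes (33.5%, against 16.4% of all probes) and all above them for 20 (10%, against 14.7%). Set against the 6 BV arrays, they were all higher for 75 probes (37.5%, against 15.3% of all) and all lower for 7 (3.5%, against 16.9%). The BV and EV arrays on the other side of these counts are those of the rule. On every one of the 3 arrays the position was below 25% for 35 probes and at 75% or above for 53.

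VitusP00284615 was the probe with the lowest C value at EV relative to PB and V. Its log2 intensity at BV was 9.99, 10.41 and 10.62 in C and 10.55, 9.36 and 10.41 in PB. It rose to 12.00 ± 0.15 in PB and 12.03 ± 0.29 in V at EV (SD, n = 3), while C replicates 1, 2 and 3 had 7.75, 7.56 and 5.69. All C values at EV were thus lower than any at BV, and the C mean was 5.01 below that of PB and V. At harvest C had 11.51, 10.63 and 9.90 and V had 11.93, 12.56 and 13.21, without overlap. PB values of 11.57, 8.79 and 12.27 overlapped both.

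VitusP00244983 followed with a C mean 4.85 below PB and V at EV. In C at EV the replicates had 5.04, 10.16 and 6.98, so replicate 2 was at the BV level (8.74 to 11.34 over the 6 BV arrays) and the others far below it. In PB and V at EV all 6 values lay between 11.88 and 12.54. At harvest the C values were 12.20, 9.97 and 9.49, the PB values 9.92, 5.73 and 12.17, and the V values 12.07, 12.45 and 12.87. PB replicate 2 at harvest was as low as the C arrays at EV. The same array had the highest random-probe level outside C at EV, 6.56.

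Among equally many strong risers with a d2 of at least 0.5, the median position of C at EV was 77.5%, with 51 probes below 25% and 103 at 75% or above. Among those with a d2 of -0.5 or lower it was 24.4%, with 100 and 57. The plateau probes lay between. These lists were cut by d2 and differ in d1 (medians of 2.07 and 1.89), and the difference was not tested.

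The position of C at EV differed with brightness, in no steady order, with medians of 43.3%, 75.4% and 67.8% from the dimmest to the brightest probes. In the 67 plateau probes dimmest at EV (EV mean up to 9.34) C berries at EV were below PB and V by a median of 0.94, against 0.26 over all 34471 probes of that brightness range. In the 66 of middle brightness the medians were -0.42 and -0.32, and in the 67 brightest, above 11.45, they were -0.62 and -0.23. The number of plateau probes below the 95th percentile of the random-sequence probes was 119, 58 and 98 on C replicates 1, 2 and 3 at EV, against 3 to 20 on the PB and V arrays. Of all grapevine probes, 74.3%, 51.3% and 63.4% lay below it on these C arrays, against 36.9% to 41.3% on the PB and V arrays. The percentile itself was 10.61, 8.53 and 9.62 on these C arrays and 7.35 to 7.68 on the PB and V arrays. These counts thus follow a shift of the whole array. The random-probe level was 7.15, 6.31 and 6.73 on these C arrays and 5.90 to 6.00 on the PB and V arrays. Its part in the result was not tested.

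Neighbouring probes did not always share their position. All members of a run fell in one of the 3 ranges of position in 19 of the 46 runs, while 12 runs held probes below 25% as well as at 75% or above. In the longest run the positions ran from -54.8% to 80.5%.

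No difference between treatments within a stage was itself a value of the rule. Comparisons with C at harvest are still not independent of it, because its EV mean used PB and V but no C arrays. All 5 comparisons were tested. For this, limma estimated the 8 group means of every grapevine probe (117999) from all 24 arrays together. A probe counted as called when it differed by 1 or more (log2) and its p, adjusted by Benjamini-Hochberg over those probes, was under 0.02. In these 5 comparisons limma called 0 plateau probes, and it called 0% of all probes in each. SAM, the test of the study's methods, was rewritten here and run per probe, whereas the study reported genes. This version also called 0 plateau probes in each comparison. Of all probes it called 1 for PB against V at EV, 5 for PB against V at harvest and 0 in the others. Counts at an unadjusted p below 0.05 are therefore given beside the share of all probes at that level. Replicates are pools from separate blocks of vines.

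At BV, PB was above C for 139 of the 200 plateau probes (against 50.4% of all), with a median difference of 0.18 and a range of -0.81 to 1.89. Of the 200, 4 had an unadjusted p below 0.05 by limma (2%, against 0.728% of all probes). The clearest was the probe of rank 175 by d1, with 12.19, 10.61 and 11.22 in PB and 8.77, 10.03 and 10.01 in C. It differed by 1.74 (standard error 0.43, limma adjusted p = 1.00). Single arrays turned the sign of the median, which ran from -0.12 without C replicate 1 to 0.67 without PB replicate 2, the low arrays, so PB and C were not told apart.

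At EV, PB and V were close. The median difference was -0.03 over the plateau probes, with PB higher for 92 (against 49.1% of all) and lower for 108. A difference of 1 or more was found for 3 of the 200 (against 1.28% of all). An unadjusted p below 0.05 was found for 1 probe (0.5%, against 1.14% of all). All 3 V values of this probe, of rank 132, exceeded the PB values, with 10.48, 10.52 and 10.61 against 9.86, 9.05 and 9.94 (difference -0.92, standard error 0.41, limma adjusted p = 1.00). The standard error of a difference had a median of 0.64 over the plateau probes. The fit shared 1 spread per probe between all groups. Over all probes the root mean square SD was 0.42 to 0.52 in the groups compared at BV and EV. It was 1.01 in C at EV and 0.60 to 0.92 at harvest. Tests at BV and EV were therefore conservative over all probes, and few low p-values there do not show that groups were alike. This did not hold for the plateau probes at BV. Their SD there was 1.06 in C and 1.12 in PB, against 0.77 to 1.15 in the other groups. Their share of low p-values at BV is thus not on the same footing as that of all probes.

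At harvest the groups parted more. V berries were above C berries for 153 of the 200 plateau probes (against 47.4% of all), by a median of 0.53. The median over all probes was -0.04. An increase with an unadjusted p below 0.05 was found for 45 plateau probes (22.5%, against 7.87% of all), and a decrease for 1 (0.5%, against 8.83%). All V values exceeded all C values for 57 probes (28.5%, against 7.93% of all) and all lay below for 6 (3%, against 11.4%). No probe passed the adjusted threshold, the lowest limma adjusted p among the plateau probes being 0.183. The difference reached 1 or more upwards for 70 probes and downwards for 6. In either direction it did so for 76 of the 200, against 18.4% of all probes.

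The rule at EV used PB and V arrays and no C arrays, so it favours probes high in defoliated berries, and this count is not independent of that choice. Relative to the EV mean, C at harvest stood at a median of -0.40, PB at -0.01 and V at 0.20. On C replicates 2 and 3 at harvest, 39 and 33 of the plateau probes were below their own BV mean, against 9 on replicate 1. On V replicates 1, 2 and 3 these counts were 4, 0 and 8. The median difference of V from C was 0.55, 0.40 and 0.54 without C replicate 1, 2 or 3. The random-probe level was 5.89, 6.29 and 6.26 on C replicates 1, 2 and 3 and 5.91 to 6.03 on the V arrays. With that level as a covariate the median difference was 0.39 and 41 probes had an increase with an unadjusted p below 0.05 (against 7.00% of all). Without C replicate 2 or 3 or V replicate 2 or 3 the count of 45 dropped to 21, 20, 28 and 21, against 4.25%, 3.71%, 5.89% and 3.61% of all probes.

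By brightness at EV, V exceeded C at harvest by a median of 1.27 in the 67 dimmest plateau probes. It was 0.31 in the 66 of middle brightness and 0.30 in the 67 brightest. Over all probes of these ranges the medians were -0.03, -0.03 and 0.08. The difference was thus largest in the dimmest probes, and the probe of rank 55 is a single example at high intensity. V berries had 13.35, 13.70 and 14.75 at harvest, and C berries 13.41, 11.01 and 11.05, so the groups overlapped at C replicate 1. The difference was 2.11 (standard error 0.57, limma adjusted p = 0.183). For the probe of rank 11, V had 10.10, 11.04 and 11.90 and C had 9.80, 5.87 and 7.46, a difference of 3.30 (standard error 0.90, limma adjusted p = 0.183).

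PB berries were above C at harvest for 131 of the 200 plateau probes (against 48.2% of all), by a median of 0.16. An increase with an unadjusted p below 0.05 was found for 21 (10.5%, against 4.44% of all probes) and a decrease for 0 (against 4.73%). All PB values exceeded all C values for 31 (15.5%, against 4.00% of all) and all lay below for 5 (2.5%, against 5.61%). As for V against C, the rule favours probes high in defoliated berries, so these counts are not independent of that choice. Over all probes the median difference of PB from C was -0.02. That of the plateau probes rested on single arrays, being 0.32 and 0.10 without C replicate 1 or 2 and 0.37 and 0.035 without PB replicate 2 or 3. Adding the random-probe level to the fit gave 0.39. Without PB replicate 2 the count of 21 dropped to 12, against 3.56% of all probes. The lowest p was that of the probe of rank 142, with 9.84, 10.65 and 9.40 in PB and 7.23, 7.32 and 5.67 in C, a difference of 3.22 (standard error 0.67, limma adjusted p = 0.113). For the probe of rank 114, C berries had 7.48, 5.35 and 7.13. PB berries had 9.88, 11.58 and 9.76, and V berries 7.94, 10.85 and 10.56. It was thus below both defoliated groups in C on each array, with differences of 3.75 (limma adjusted p = 0.116) and 3.13 (limma adjusted p = 0.183). The same C arrays enter both.

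PB was below V at harvest for 116 probes and above for 84 (against 53.2% of all above), with a median of -0.21, against 0.06 over all probes. All PB values lay below all V values for 25 probes (12.5%, against 7.77% of all) and above them for 13 (6.5%, against 8.86%). A lower PB value with an unadjusted p below 0.05 was found for 29 (14.5%, against 9.59% of all) and a higher one for 3 (1.5%, against 8.09%). In the probe of rank 87, PB replicates 1 and 2 had 5.71 and 5.81 whereas replicate 3 had 10.32 and V had 9.19, 11.39 and 12.39. The difference was -3.71 (standard error 1.08, limma adjusted p = 0.179). PB replicates 1, 2 and 3 had random-probe levels of 6.38, 6.56 and 6.03. With that level as a covariate 6 probes remained past the unadjusted p, against 3.68% of all probes, and without PB replicate 1 or 2 or V replicate 3 there were 19, 8 and 12 (against 7.54%, 4.29% and 5.97%).

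The harvest differences went along with the position of C at EV. That position uses no harvest array, but its BV and EV means are those of the rule, which also limited d2. The C arrays at EV and at harvest share a label set, so this is a description. In the 71 probes with C at EV below 25% of the rise, V exceeded C at harvest by a median of 1.41, in 64 of them, and PB differed from V by a median of -1.17. In the 84 at 75% or above these medians were 0.18, with V above C in 52, and 0.18. The low set had harvest medians of 9.91, 9.06 and 9.19 in C, 9.75, 8.79 and 10.08 in PB and 9.75, 10.10 and 10.22 in V. The random-probe level at harvest was raised (6.26 to 6.56) on C replicates 2 and 3 and PB replicates 1 and 2, and the low values of this set lay on all of these but PB replicate 1. The part of the random-probe level was not tested.

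The level phase therefore holds for the median of the harvest arrays and not for each array. The range over the 9 harvest arrays had a median of 2.25 (2.02 over all probes) and was 2 or more for 112 plateau probes. On at least 1 harvest array 75 of the 200 were below their own BV mean. On V replicate 2 at harvest there were 0 such probes, and on PB replicate 2 there were 40. The share of all probes below their BV mean was not computed.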

How the data were processed

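The authors deposited 1 normalized fluorescence intensity per probe for 24 one-colour Cy3 arrays (NimbleGen, grapevine gene prediction), on a linear scale from 20.35 to 61689. The software for scanning, background correction and normalization is not given in the sources used here. Quartiles of the log2 values over grapevine and random-sequence probes together matched between arrays to within 0.00066, so they were used without further scaling. Over the grapevine probes alone the array medians were not matched and ran from 8.10 to 8.49. Of 139363 rows, 117999 grapevine and 19091 random-sequence probes held values. Replicates were numbered as in the titles. The plateau probes and all tests and lists were chosen with earlier results of these data known. Named probes were the 2 with the largest d1 and the 2 with the lowest C at EV relative to PB and V. Other probes are given by rank, and those leading a comparison are among the 3 with the lowest p. The runs (10 numbers) and ranges of position (25%, 75%) were set after seeing the data. Contrasts were fitted in R 4.3.3 with limma 3.58.1 (lmFit, eBayes), with 16 residual degrees of freedom, and tables were made in Python 3.11.15. The scripts were tested on simulated data. The number of arrays limits the precision.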

Additional observations from a re-analysis of the deposited data

How the results depend on the processing

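Membership depended on the rule's limits and on the arrays it used. Of the 200 plateau probes, 86 stayed with an absolute d2 below 0.25, 103 with one below 1, 69 when the C arrays at EV joined the EV mean and 124 without both low BV arrays (chosen after seeing the data). Between 153 and 183 stayed when 1 array was left out. The position of C at EV was 46.3% without both low BV arrays and between 49.5% and 65.4% when 1 C array was left out. Without 1 C array, 65 to 75 probes were below 25% and 79 to 89 at 75% or above. Rescaling raised the median position, to 69.3% with median centring and scaling by the median absolute deviation. With quantile normalization over grapevine probes it was 67.8%. The count of plateau probes called by limma was 0 in all 5 comparisons under every alternative that kept all arrays, and was 0 to 8 for V against C and 0 to 13 for PB against V at harvest when 1 array was left out (8 without C replicate 1, or 4% against 2.46% of all probes, and 13 without PB replicate 3, or 6.5% against 5.21%). At harvest the median difference of PB from C was 0.39 in a fit that also held the random-probe level and 0.035 to 0.374 without 1 array, and that of PB from V was -0.027 and -0.31 to -0.18. The counts at an unadjusted p below 0.05 were 20 to 54 for V above C, 12 to 27 for PB above C and 8 to 43 for PB below V without 1 array, while the shares of all probes ran from 3.61% to 11.9%, from 3.56% to 8.30% and from 4.29% to 14.4%, and 6 for the last in the fit with the random-probe level. Correlations of same-numbered deviations ran from -0.37 to 0.31, so no pairing by replicate number was seen. The vines stood in blocks, and these correlations cannot show whether the numbers follow the blocks. With the replicate block 0 plateau probes were called in each comparison. A gene-level summary was not run.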
